A study of Mus musculus with 7 samples.

Results

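The genes described here are 9 members of the transforming growth factor beta (TGF-β) pathway, chosen by name from 47643 gene rows. They are the ligand genes Tgfb1, Tgfb2 and Tgfb3, the type I receptor gene Tgfbr1, the pathway repressors Smad7, Ski, Skil and Tgif1, and the transcription factor gene Bhlhe40. RNA of whole subcutaneous tumours was sequenced from transcript 3′ ends after treatment with PEGPH20, a pegylated hyaluronidase that digests the matrix polysaccharide hyaluronan, or with vehicle. There were 4 PEGPH20 tumours (replicates 11, 12, 19 and 37) and 3 vehicle tumours (replicates 14, 16 and 33), with 1 library each. PEGPH20 was given at 0.0375 mg/kg from day 15, with 2 doses per week over 3 weeks. All 7 tumours grew from MTO cells of the genotype sgPrkci/Prkcz, an edit of the atypical protein kinase C genes that the vehicle tumours carry too. The cells were placed in 30% Matrigel in the right flank of C57BL/6 mice aged 7 weeks, and the labels give the mice's age as 13 weeks. Other alleles of the MTO cells, and whether the tumour cells themselves can respond to TGF-β, are not stated in the sources used here. The flank is not the site where colorectal tumours arise, and C57BL/6 is an inbred strain with an intact immune system.

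TGF-β ligands are secreted in a latent form held in the matrix and become active when integrins or thrombospondin release them. An active ligand binds a type II receptor, which activates the type I receptor encoded by Tgfbr1. That kinase phosphorylates SMAD2 and SMAD3, which join SMAD4 and act on genes. SMAD7 blocks the receptor, and SKI, SKIL and TGIF1 hold SMAD complexes in a repressed state. Transcription of Smad7 and Skil is itself driven by SMADs, which makes both part of a feedback loop. In intestinal tumours the pathway is known for restraining epithelial growth and for driving matrix production by fibroblasts.

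Per library, 4582238 to 6703775 reads were recovered from PEGPH20 tumours and 4204388 to 4304108 from vehicle tumours, of which 10.97% to 12.28% were mitochondrial. The labelled tissue was checked against marker lists. All 11 epithelial markers were tested and none was at 0, with summed normalised read counts of 16135 to 18813 in PEGPH20 tumours and 17884 to 21134 in vehicle tumours. All 12 fibroblast markers had a lower mean in PEGPH20 tumours, with sums of 10180.3 to 25516 in PEGPH20 tumours and 19918 to 50002 in vehicle tumours, none at 0. The 9 skeletal muscle markers summed to between 13.1 and 1817 in PEGPH20 tumours and between 72.4 and 8753 in vehicle tumours, with Ckm, Myh1, Actn3 and Pvalb at 0 in at least 1 library. Their mean log2 level was highest in vehicle 16, then PEGPH20 11 and PEGPH20 37. Skin keratinocyte markers summed to 928 in vehicle 14 and to between 40.9 and 88.5 in the other 6 tumours. The lists of endothelial, macrophage, neutrophil, T cell, adipocyte and erythroid markers had overlapping sums in the groups. Vehicle 14 also stood apart in the neutrophil sum, at 1116 against 284 to 494 in the other 6 tumours. The mean was lower in PEGPH20 tumours for 7 of 11 epithelial, 7 of 8 endothelial, 7 of 8 macrophage and 4 of 6 neutrophil markers. It was also lower for all 9 skeletal muscle and all 5 keratinocyte markers, for 1 of 6 adipocyte markers, and for 0 of 8 T cell and 0 of 3 erythroid markers. Only 3 of the adipocyte markers had values high enough to be tested. Among the epithelial markers 3 were lower in PEGPH20 tumours without overlap and 1 was higher without overlap. Of the fibroblast markers 1 was lower without overlap, of the T cell markers 1 was higher, and the other lists had none. Over all genes tested, 4.45% were lower without overlap and 6.72% higher. In whole tumours, fewer cells of a type and less RNA per cell cannot be told apart.

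No gene of the whole table passed the test. By limma on log2(value + 1), 0 of 17132 genes (0%) had an adjusted p under 0.05 in the comparison of PEGPH20 with vehicle tumours, and 2083 an unadjusted one. The edgeR quasi-likelihood test also called 0 of 13079 genes (0%), and 1704 of them were under 0.05 before adjustment. DESeq2 called 64 of 10485 genes with an adjusted p (0.61%), none of them a member. All 9 members were tested, and 8 had smaller values in PEGPH20 tumours, with a median log2 difference of -0.41 against 0.03 over all genes tested, of which 46.0% had smaller values in PEGPH20 tumours. Unadjusted p was under 0.05 for 4 of the 9, each with smaller values in PEGPH20 tumours, where 4.58% of all genes tested were of this kind and 7.58% had such a p with larger values. In 2 of the 9 every PEGPH20 tumour lay below every vehicle tumour, a pattern held by 4.45% of all genes tested, against 6.72% with the opposite one. The differences below are thus descriptions of these tumours with their errors, and none is a call. Because the members were chosen with earlier results of these data known, the shares above are no test of them.

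Of the repressors, Ski and Tgif1 had non-overlapping groups. The start regions of both are shown, with that of Tgfb2 for comparison, as the gene starts of RefSeq on GRCm38.p6, 250 bases before to 50 bases after the start and 5′ to 3′ on the gene's own strand. Capitals mark CAGAC, a short sequence that SMAD3 and SMAD4 bind, or its reverse complement GTCTG.
Ski, chr4:155222486-155222785, minus strand: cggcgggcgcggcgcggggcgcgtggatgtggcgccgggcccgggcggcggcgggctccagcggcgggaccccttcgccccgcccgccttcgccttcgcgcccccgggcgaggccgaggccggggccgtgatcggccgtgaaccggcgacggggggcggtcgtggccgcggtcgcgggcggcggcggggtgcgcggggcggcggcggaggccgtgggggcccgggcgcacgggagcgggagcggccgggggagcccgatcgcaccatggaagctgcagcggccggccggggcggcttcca
Tgif1, chr17:70853483-70853782, minus strand: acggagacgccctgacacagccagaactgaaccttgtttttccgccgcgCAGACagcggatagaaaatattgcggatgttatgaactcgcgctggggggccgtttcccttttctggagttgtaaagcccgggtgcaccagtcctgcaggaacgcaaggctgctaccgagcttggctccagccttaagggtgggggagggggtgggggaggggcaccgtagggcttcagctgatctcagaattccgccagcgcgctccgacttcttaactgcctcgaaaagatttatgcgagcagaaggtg
Tgfb2, chr1:186705940-186706239, minus strand: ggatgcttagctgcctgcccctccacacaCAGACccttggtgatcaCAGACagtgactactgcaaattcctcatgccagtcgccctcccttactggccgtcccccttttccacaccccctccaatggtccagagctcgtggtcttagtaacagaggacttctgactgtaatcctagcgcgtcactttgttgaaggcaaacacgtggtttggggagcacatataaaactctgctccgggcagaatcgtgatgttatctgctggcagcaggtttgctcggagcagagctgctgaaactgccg
The Ski region held no CAGAC on either strand, and 85.3% of its bases were G or C. The Tgif1 region, the most upstream of 5 listed starts, held 1 at position -201, and the Tgfb2 region held 2, at -221 and -204, counted from the start. The other 4 Tgif1 regions held 0, 1, 0 and 2 in order of position on the chromosome, and the Tgfb1 region, not shown, held 0. Of the 2 Tgfbr1 regions 1 held a CAGAC. The start regions of Smad7, Skil, Tgfb3 and Bhlhe40 were not searched. Across 32851 mouse regions of this length 49.6% held CAGAC or GTCTG, so its presence is common. The longer palindrome GTCTAGAC, present in 0.213% of those regions, was in none of the 3 shown. The reads cover transcript ends only and do not show which start was used.

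Ski encodes a co-repressor that binds SMAD complexes on DNA. It lies on GRCm38 chromosome 4 at 155154075 to 155222592 (ENSMUSG00000029050). Ski had 293, 328, 350 and 280.2 normalised read counts in PEGPH20 tumours 11, 12, 19 and 37, against 395, 387 and 507 in vehicle tumours 14, 16 and 33. All 4 PEGPH20 tumours were below all 3 vehicle tumours, and vehicle 33 was the highest. The means were 313 ± 32.0 in PEGPH20 tumours (SD, n = 4) and 429.5 ± 67.0 in vehicle tumours (SD, n = 3), a log2 difference of -0.45 ± 0.13 (SE) at an unadjusted p of 0.00537 and an adjusted p of 0.313 in limma. Each value rests on 354 to 634 reads. With the mean level of the fibroblast markers as a covariate, the Ski difference was -0.21 ± 0.11, with an unadjusted limma p of 0.0829. That level was itself lower in PEGPH20 tumours (mean log2 8.05 against 8.84 in vehicle tumours). The fit therefore cannot separate it from treatment, for Ski or for the other genes. Its part in the Ski result was not tested.

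Tgif1 encodes a homeodomain protein that recruits histone deacetylases to SMAD complexes. Its gene lies on chromosome 17 at 70844205 to 70853546 (ENSMUSG00000047407). Normalised read counts of Tgif1 were 352, 302.5, 323 and 294 in PEGPH20 tumours 11, 12, 19 and 37, and 457, 366 and 453 in vehicle tumours 14, 16 and 33. The groups did not overlap, with PEGPH20 11 and vehicle 16 the nearest to each other. Tgif1 averaged 318 ± 25.8 in PEGPH20 tumours and 425 ± 51.5 in vehicle tumours (SD, n = 4 and 3), a log2 difference of -0.41 ± 0.11 at an unadjusted p of 0.00441 and an adjusted p of 0.305 in limma. It was the one member whose unadjusted p stayed under 0.05 in all 19 alternatives, and its difference was -0.36 ± 0.14 with the fibroblast level as a covariate. Ski and Tgif1 were also the only members without overlap when the reads were scaled by library totals, TMM, DESeq2 factors or upper quartiles.

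Skil encodes SnoN, a relative of SKI that is degraded upon TGF-β signalling and then resynthesised. The gene lies on chromosome 3 at 31095058 to 31122577 (ENSMUSG00000027660). Skil had 393, 419.6, 488 and 297 normalised read counts in PEGPH20 tumours 11, 12, 19 and 37, against 625, 402.5 and 626 in vehicle tumours 14, 16 and 33. Vehicle 16 lay among the PEGPH20 tumours, while vehicle 14 and vehicle 33 were above all of them. The log2 difference was -0.46 ± 0.20, with an unadjusted p of 0.0441 and limma's adjusted p = 0.405. With the fibroblast covariate it was -0.12 ± 0.19. Leaving out 1 tumour gave Skil differences from -0.67 without vehicle 16 to -0.32 without PEGPH20 37.

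Smad7 encodes the inhibitory SMAD that occupies TGFBR1 and recruits ubiquitin ligases to it, and lies on chromosome 18 at 75367529 to 75395935 (ENSMUSG00000025880). Its normalised read counts were 254, 302, 343 and 195 in PEGPH20 tumours 11, 12, 19 and 37, and 365, 239 and 496 in vehicle tumours 14, 16 and 33. The groups overlapped, with PEGPH20 37 the lowest of the 7 and vehicle 16 the second lowest. Smad7 averaged 273 ± 63.8 in PEGPH20 tumours and 367 ± 129 in vehicle tumours (SD, n = 4 and 3), a log2 difference of -0.39 ± 0.25 and an adjusted p of 0.544 by limma. Its 95% interval ran from -0.96 to 0.17. Without vehicle 33 the Smad7 difference was -0.14 ± 0.24, without PEGPH20 37 -0.24 ± 0.25, and without vehicle 16 -0.67 ± 0.21 at an unadjusted limma p of 0.01195. With the fibroblast covariate the sign turned, to 0.15 ± 0.18.

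Bhlhe40 encodes a basic helix-loop-helix repressor that is induced by hypoxia, by circadian factors and, in several cell types, by TGF-β. It lies on chromosome 6 at 108660629 to 108666925 (ENSMUSG00000030103). Bhlhe40 had 749.9, 726, 776 and 551 normalised read counts in PEGPH20 tumours 11, 12, 19 and 37, against 1455, 767 and 1326 in vehicle tumours 14, 16 and 33. Vehicle 14 and vehicle 33 were far above every PEGPH20 tumour, and vehicle 16 lay just below PEGPH20 19. The mean was 701 ± 102 in PEGPH20 tumours and 1183 ± 365 in vehicle tumours (SD, n = 4 and 3), a ratio of 0.593. The log2 difference of -0.71 ± 0.21, the largest in size among the 9, had an unadjusted p of 0.00783 and an adjusted p of 0.325 in limma. Without vehicle 16 the difference was -0.9985 with limma's adjusted p = 0.0615, and DESeq2 with all tumours gave Bhlhe40 an adjusted p of 0.0600. Without vehicle 14 it was -0.54 ± 0.22, with an adjusted p of 0.512 by limma, and with the fibroblast covariate -0.45 ± 0.24 at an unadjusted limma p of 0.0888, the one alternative in which that p was not under 0.05. Over the 19 alternatives the adjusted p of Bhlhe40 ranged from 0.0600 to 0.751.

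**Figure D1:**
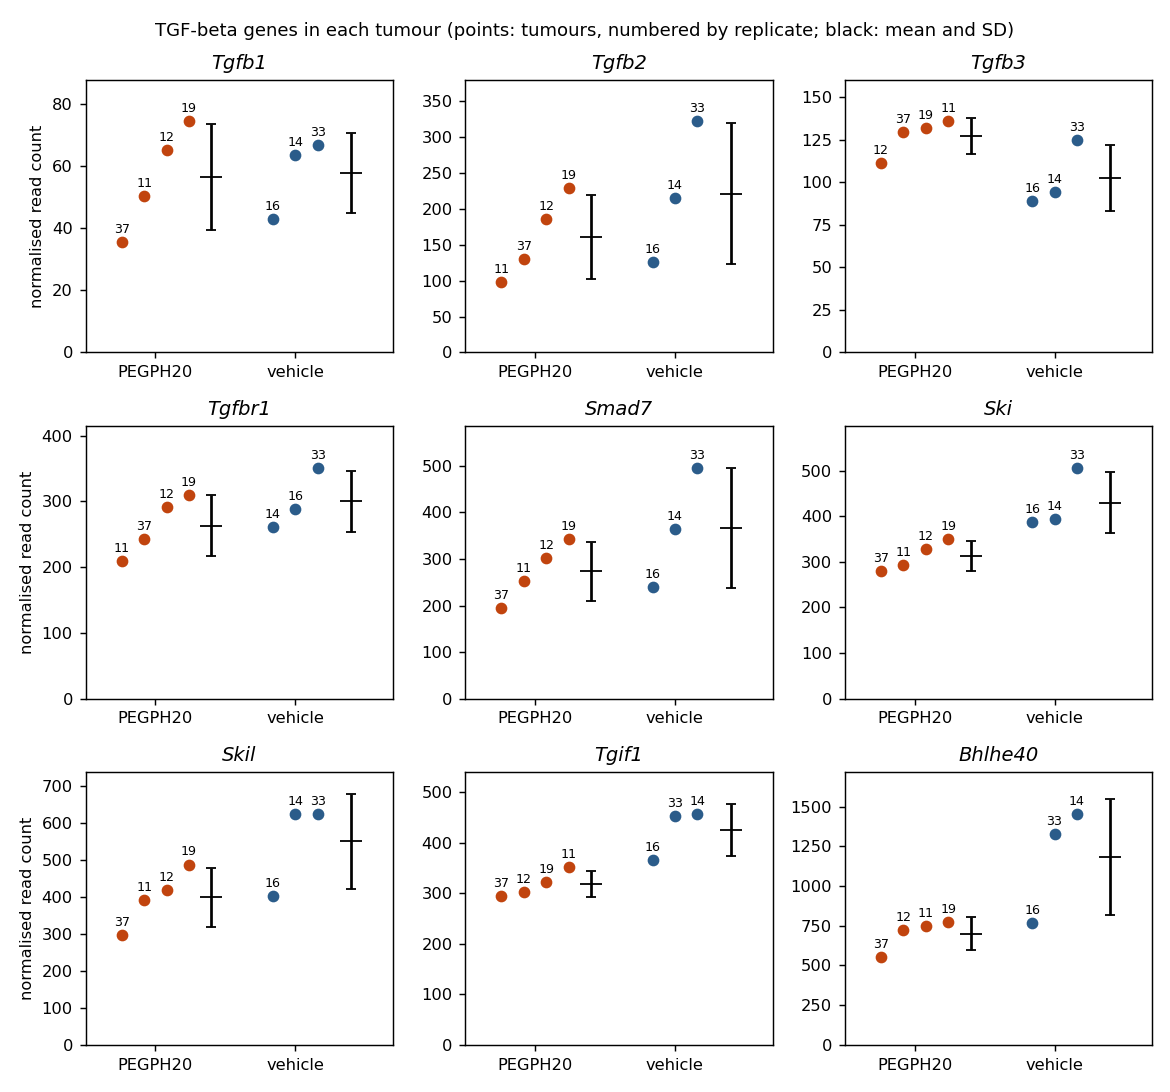
Normalised read count (vertical axes, each from 0) of each of the 9 genes, 1 point per tumour, with PEGPH20 tumours left of vehicle tumours and the mean and SD of each group. The PEGPH20 points of Ski and Tgif1 all lie below the vehicle points, while for Bhlhe40 the vehicle 16 point (767) sits among the PEGPH20 points (551 to 776).

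The plot of counts by tumour shows overlapping groups for each of the 3 ligand genes, and none had an unadjusted p under 0.05. Tgfb1 encodes the ligand that immune cells, platelets and many other cells store in latent form (chromosome 7 at 25687002 to 25705077, ENSMUSG00000002603). It had 50.5, 65.5, 74.6 and 35.8 normalised read counts in PEGPH20 tumours 11, 12, 19 and 37, and 63.6, 43.2 and 66.8 in vehicle tumours 14, 16 and 33. The vehicle values lay inside the PEGPH20 range, whose ends are PEGPH20 37 and PEGPH20 19. The log2 difference was -0.06 ± 0.26 with a 95% interval from -0.65 to 0.53. Tgfb1 rests on 47 to 135 reads per library, the fewest of the 9.

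Tgfb2 encodes a ligand made by mesenchymal and epithelial cells that needs betaglycan to bind its receptor well (chromosome 1 at 186622792 to 186705989, ENSMUSG00000039239). Normalised read counts of Tgfb2 were 97.8, 186, 229 and 129.9 in PEGPH20 tumours 11, 12, 19 and 37, and 214 (vehicle 14), 126 (vehicle 16) and 322 (vehicle 33) in vehicle tumours. Only vehicle 33 was above all PEGPH20 tumours. The log2 difference was -0.43 ± 0.34, with limma's adjusted p = 0.621, and 0.37 ± 0.18 with the fibroblast covariate. It was -0.11 ± 0.33 without vehicle 33, -0.22 ± 0.33 without PEGPH20 11 and -0.78 ± 0.31 without vehicle 16, where the unadjusted limma p was 0.0317.

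Tgfb3, whose product acts in palate closure and in scar formation, was the one member with larger values in PEGPH20 tumours (chromosome 12 at 86056745 to 86079041, ENSMUSG00000021253). It had 136, 112, 132 and 129.9 normalised read counts in PEGPH20 tumours 11, 12, 19 and 37, against 94.2, 89.1 and 125 in vehicle tumours 14, 16 and 33. Vehicle 33 lay above PEGPH20 12 and below the other 3 PEGPH20 tumours. The means were 127 ± 10.8 in PEGPH20 tumours and 103 ± 19.4 in vehicle tumours (SD, n = 4 and 3), a log2 difference of 0.32 ± 0.15 with an unadjusted p of 0.0539 and limma's adjusted p = 0.420.

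Because a share within a library does not depend on its size factor, the ligands were also set against each other, for comparison between tumours only. Tgfb1 made up 17.8%, 18.03%, 17.1% and 12.1% of the 3 ligands' values in PEGPH20 tumours 11, 12, 19 and 37, and 17.1%, 16.7% and 13.0% in vehicle tumours 14, 16 and 33. The Tgfb2 share averaged 45.5% ± 8.34 in PEGPH20 tumours and 56.3% ± 7.04 in vehicle tumours, and the Tgfb3 share 38.2% ± 9.01 in PEGPH20 tumours and 28.0% ± 5.63 in vehicle tumours (SD, n = 4 and 3). Groups overlapped for each ligand. Two-sided exact permutation tests over all 35 assignments of the tumours gave p = 0.571 for Tgfb1, p = 0.171 for Tgfb2 and p = 0.171 for Tgfb3, and 0.571, 0.257 and 0.257 after Benjamini-Hochberg adjustment over the 3. The smallest one-sided p this design allows is 0.0286. The two-sided test doubles the smaller one-sided p, so it could not give a p under 0.05 here.

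**Figure D2:**
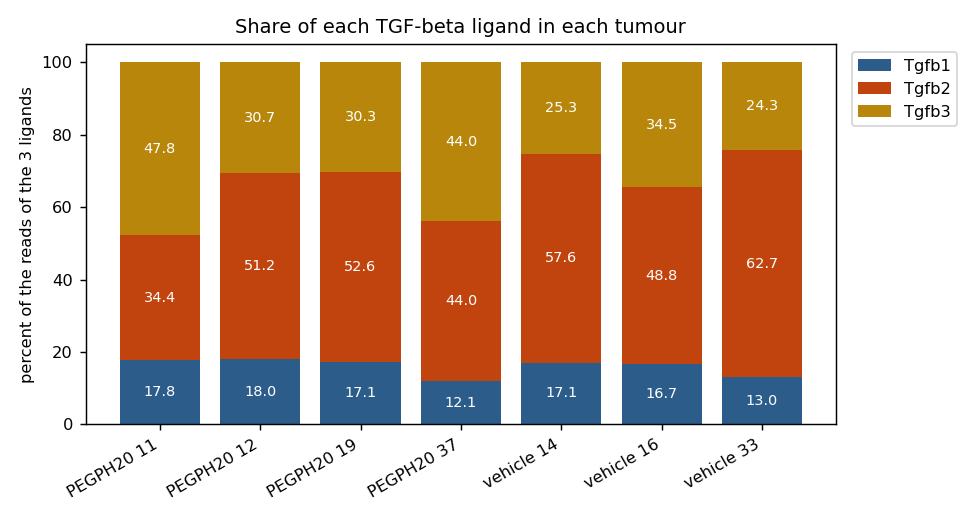
Percent of the 3 ligands' values taken by Tgfb1, Tgfb2 and Tgfb3 (vertical axis) in each of the 4 PEGPH20 and 3 vehicle tumours. The Tgfb2 share is smallest in PEGPH20 11 (34.4%) and largest in vehicle 33 (62.7%), and the Tgfb3 share is largest in PEGPH20 11 (47.8%) and smallest in vehicle 33 (24.3%).

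Tgfbr1 encodes the type I receptor kinase (chromosome 4 at 47353222 to 47414931, ENSMUSG00000007613). Its normalised read counts were 209, 292, 309.9 and 242 in PEGPH20 tumours 11, 12, 19 and 37, and 261, 288 and 351 in vehicle tumours 14, 16 and 33. The groups overlapped, with only vehicle 33 above all PEGPH20 tumours. The log2 difference was -0.19 ± 0.16, with limma's adjusted p = 0.625 and a 95% interval from -0.55 to 0.16. With the fibroblast covariate it was 0.12 ± 0.13, and with 1 tumour left out it lay between -0.29 (without vehicle 14) and -0.07 (without vehicle 33).

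The 9 genes did not vary alike across the tumours. PEGPH20 37 had the lowest value of all 7 tumours for 6 of the 9 genes (Tgfb1, Smad7, Ski, Skil, Tgif1 and Bhlhe40), and PEGPH20 11 for Tgfb2 and Tgfbr1. Vehicle 33 had the highest value for 5 (Tgfb2, Tgfbr1, Smad7, Ski and Skil) and vehicle 14 for Tgif1 and Bhlhe40. Vehicle 16 lay within the PEGPH20 range for 6 of the 9, vehicle 14 for 3 and vehicle 33 for 2. Beside these values, the mean log2 level of the fibroblast markers was 7.55, 8.402, 8.57 and 7.66 in PEGPH20 tumours 11, 12, 19 and 37, and 8.61, 8.37 and 9.55 in vehicle tumours 14, 16 and 33. The fibroblast level was thus also highest in vehicle 33 and lower in PEGPH20 11 and 37 than elsewhere. So was the mean log2 level of the endothelial markers, at 6.20 in vehicle 33, 5.55 in PEGPH20 11 and 5.16 in PEGPH20 37. In the other tumours that level was 5.84 to 6.02. The part of either cell type in these values was not tested.

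**Figure D3:**
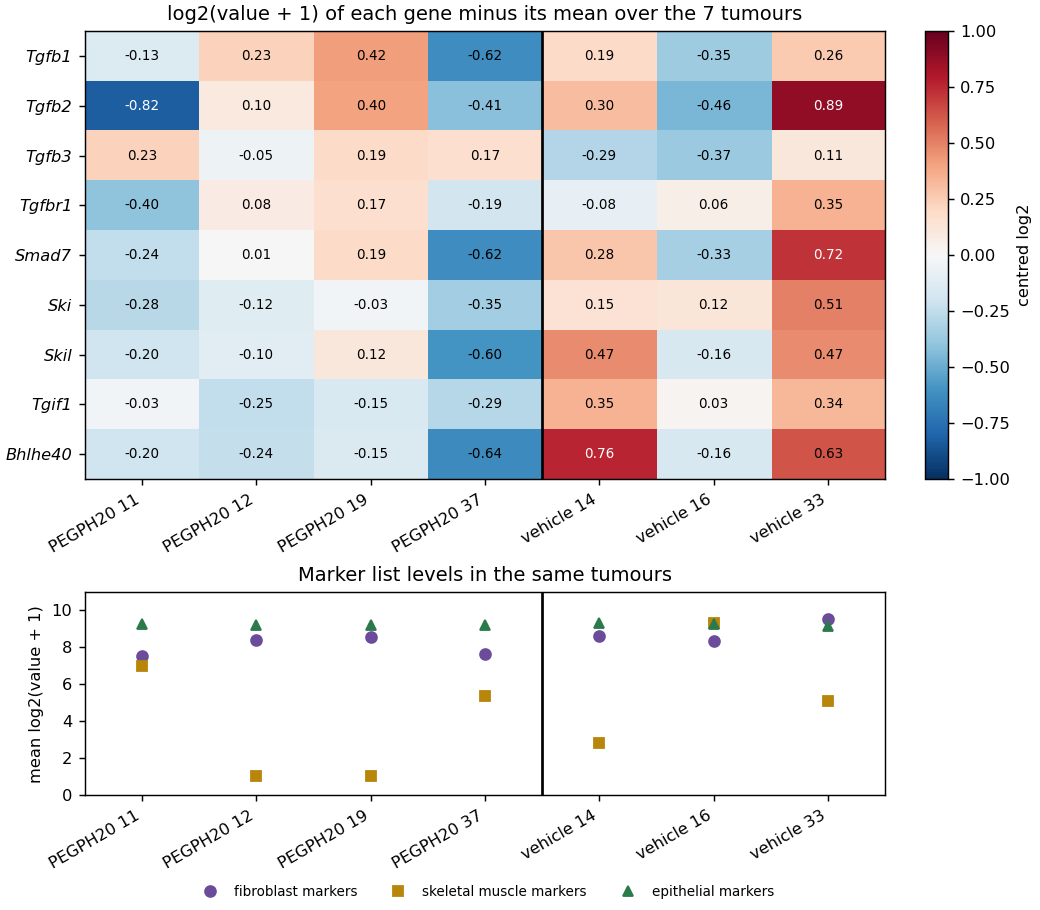
Top, log2(value + 1) of each of the 9 genes minus its mean over the 7 tumours, in colour with the value printed, PEGPH20 tumours left of vehicle tumours. Bottom, mean log2(value + 1) of the fibroblast, skeletal muscle and epithelial marker lists in the same tumours: the fibroblast level peaks in vehicle 33 (9.55), where 5 of the 9 genes are highest.

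The heat map also shows which members were nearest to each other. The measure was the root-mean-square difference over the 7 tumours between log2 values centred on each gene's own mean, and it serves as a description only. Ski and Tgif1 were nearest to each other among the members (0.159), as were Smad7 and Skil (0.145), while Bhlhe40 was nearest to Skil (0.167). Tgfb3 was the farthest from any other member (0.344 to Tgfbr1). Among 8223 genes with a mean of at least 50, the closest to Ski were Myh9, Rai14 and Glis2 (0.066 to 0.0715), to Tgif1 Pcnx, Jmy and Malat1 (0.0622 to 0.0755), and to Bhlhe40 Ccng2, Ass1 and Wsb1 (0.101 to 0.146). The closest to Skil were Srd5a1, Map4k4 and Ass1 (0.0607 to 0.0766), and to Smad7 Mast4, Mmp14 and Nes (0.063 to 0.077). Tgfb2 was closest to Maged2, Vcan and P3h4 (0.0968 to 0.113), Tgfb1 to Ano8, Spaca6 and Tenm4 (0.107 to 0.134), Tgfb3 to Zfp866, Slc22a23 and Ahdc1 (0.0747 to 0.0846), and Tgfbr1 to Ppp1r2, Morc4 and Rap2a (0.0489 to 0.0774). Ccng2, a cyclin-like gene, had 275, 262.5, 299 and 244 normalised read counts in PEGPH20 tumours 11, 12, 19 and 37. Its values were 510, 299.6 and 501.5 in vehicle tumours 14, 16 and 33. Ccng2 was picked as nearest to Bhlhe40, so being high in the same pair of vehicle tumours follows from that choice.

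The differences were recomputed under 19 alternatives, of which 7 leave out 1 tumour each. The Tgif1 log2 difference ranged from -0.54 to -0.36, Ski from -0.52 to -0.21, Bhlhe40 from -0.9985 to -0.45 and Skil from -0.67 to -0.12. These 4 kept their sign in all 19, and the unadjusted p was under 0.05 in 19 of them for Tgif1, 18 for Ski, 18 for Bhlhe40 and 12 for Skil. Tgfb3 ranged from 0.16 to 0.47, larger in PEGPH20 tumours throughout, with an unadjusted p under 0.05 in 5. Without the 3 tumours of highest muscle marker level, which leaves PEGPH20 12 and 19 against vehicle 14 and 33, the differences were -0.89 ± 0.10 for Bhlhe40, -0.54 ± 0.09 for Tgif1, -0.47 ± 0.11 for Skil and -0.40 ± 0.15 for Ski. In the same setting the differences were -0.40 ± 0.17 for Smad7, -0.35 ± 0.23 for Tgfb2, 0.16 ± 0.19 for Tgfb3, -0.01 ± 0.17 for Tgfbr1 and 0.10 ± 0.16 for Tgfb1, which has the opposite sign to its value with all tumours. The summed muscle markers of the retained vehicle 33 (412) were close to those of PEGPH20 37 (546.5), which is left out there. The retained vehicle 14 had the highest skin keratinocyte (928) and neutrophil (1116) marker sums of all tumours. The part of muscle or of these other cells in these values was not tested.

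**Figure D4:**
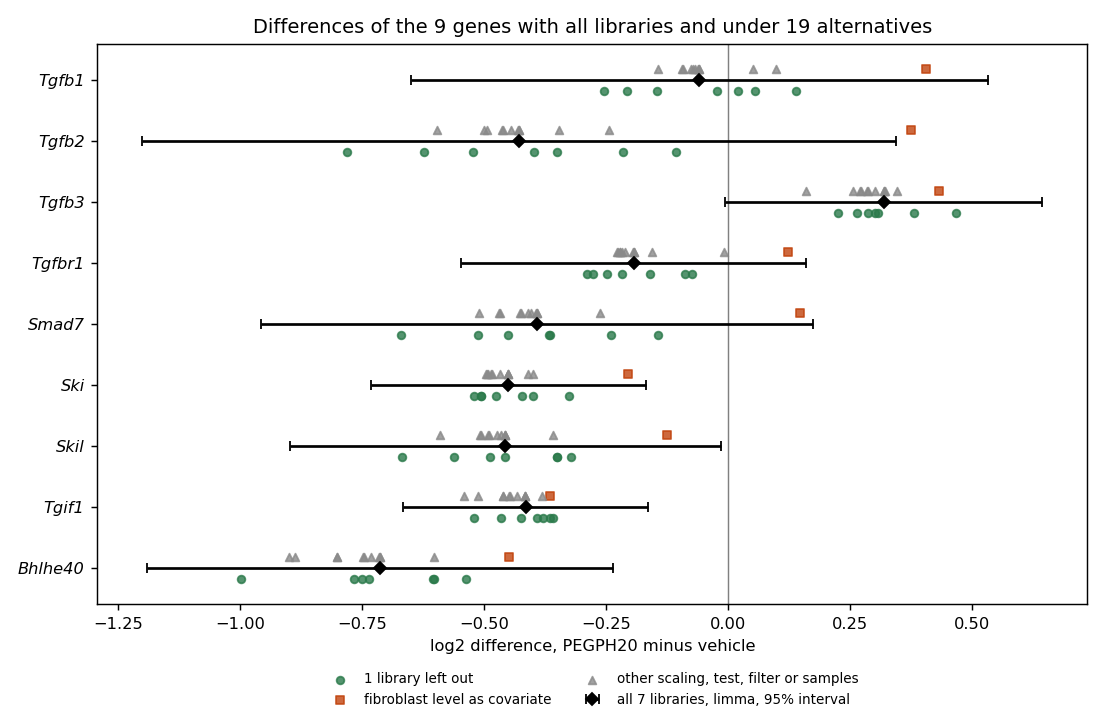
Log2 difference, PEGPH20 minus vehicle (horizontal axis), of each of the 9 genes with all 7 tumours and its 95% interval, with the values under the 19 alternatives. Tgif1 stays between -0.54 and -0.36, while Tgfb1 (-0.25 to 0.41) has values on both sides of 0.

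The other genes of the pathway were a list of 41 chosen by textbook role, with earlier results of these data known. The counts below are therefore no test of the list. All 41 were tested and 0 passed limma's threshold; 34 had smaller values in PEGPH20 tumours and 7 larger, with a median log2 difference of -0.23, beside the 46.0% of all genes tested with smaller values. Unadjusted p was under 0.05 for 8, all with smaller values, and 4 had groups without overlap (Thbs1, Itgav, Smurf1 and Rhob), each lower in PEGPH20 tumours. Over all genes tested the matching shares were the 4.58% and 4.45% given above. The fibroblast marker list also holds 1 of the targets, Col1a1, and Postn, Acta2 and Tagln are known from fibroblasts and smooth muscle. With the fibroblast level as a covariate 4 of the 41 had an unadjusted p under 0.05, and so had 2 without vehicle 33, 4 without PEGPH20 11, PEGPH20 37 or vehicle 14 in turn, and 16 without vehicle 16. The share of all genes tested under 0.05 in each of these settings is not given here. These counts therefore do not show whether the pathway genes moved apart from the rest.

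Of the 11 genes that keep the ligands latent or release them, 9 had smaller values in PEGPH20 tumours. Thbs1 encodes thrombospondin, which can activate latent TGF-β. Thbs1 had 1229.7, 1029, 1219.6 and 1261 normalised read counts in PEGPH20 tumours 11, 12, 19 and 37, against 1372, 1690.07 and 1477 in vehicle tumours 14, 16 and 33. The groups did not overlap, and the log2 difference was -0.35 ± 0.11 and an adjusted p of 0.325 by limma. Itgav, the alpha subunit of the integrins that pull TGF-β free, had 259, 261, 257 and 183 in PEGPH20 tumours and 342, 273 and 333 in vehicle tumours, a log2 difference of -0.40 ± 0.15 and an adjusted p of 0.369 by limma.

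All 4 other receptor genes had smaller mean log2 values in PEGPH20 tumours, none with an unadjusted p under 0.05. Tgfbr2, the type II receptor gene, had 493, 409, 431 and 395 normalised read counts in PEGPH20 tumours 11, 12, 19 and 37, and 419, 543 and 475 in vehicle tumours 14, 16 and 33. These groups overlapped widely, with a log2 difference of -0.15 ± 0.12. The log2 differences of the signal-carrying SMAD genes were 0.05 ± 0.12 for Smad2, -0.21 ± 0.14 for Smad3 and 0.15 ± 0.09 for Smad4, with unadjusted p of 0.671, 0.1599 and 0.117.

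Among 6 further inhibitors, 5 had smaller values in PEGPH20 tumours. Smurf1, a ubiquitin ligase that acts with SMAD7, had 257, 285, 282 and 233 normalised read counts in PEGPH20 tumours 11, 12, 19 and 37, and 329, 299.6 and 342 in vehicle tumours 14, 16 and 33. Its log2 difference was -0.29 ± 0.10 and an adjusted p of 0.355 by limma. Smad6, an inhibitory SMAD that acts mainly on BMP signals, differed by -0.14 ± 0.15. Pmepa1, a SMAD target whose product dampens the pathway, had 1772, 3332, 3795 and 1492 in PEGPH20 tumours and 3968, 2529 and 5956 in vehicle tumours, a log2 difference of -0.70 ± 0.37. That interval includes 0 (-1.52 to 0.12), and PEGPH20 11 and 37 were the lowest.

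Of 17 target genes, 15 had smaller values in PEGPH20 tumours, 5 with an unadjusted p under 0.05, of which 4 are described here. Rhob, a small GTPase gene, had the tightest values of the 4, with 174, 186, 178 and 188 normalised read counts in PEGPH20 tumours and 226, 218 and 214 in vehicle tumours, a log2 difference of -0.27 ± 0.09 and an adjusted p of 0.348 by limma. The contractile genes Tagln and Acta2 and the matrix gene Postn differed more and spread more, with log2 differences of -0.95 ± 0.37, -0.87 ± 0.34 and -1.07 ± 0.41, and PEGPH20 11 was the lowest for all 3. Ccn2, a matricellular target, differed by -0.19 ± 0.14.

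**Figure D5:**
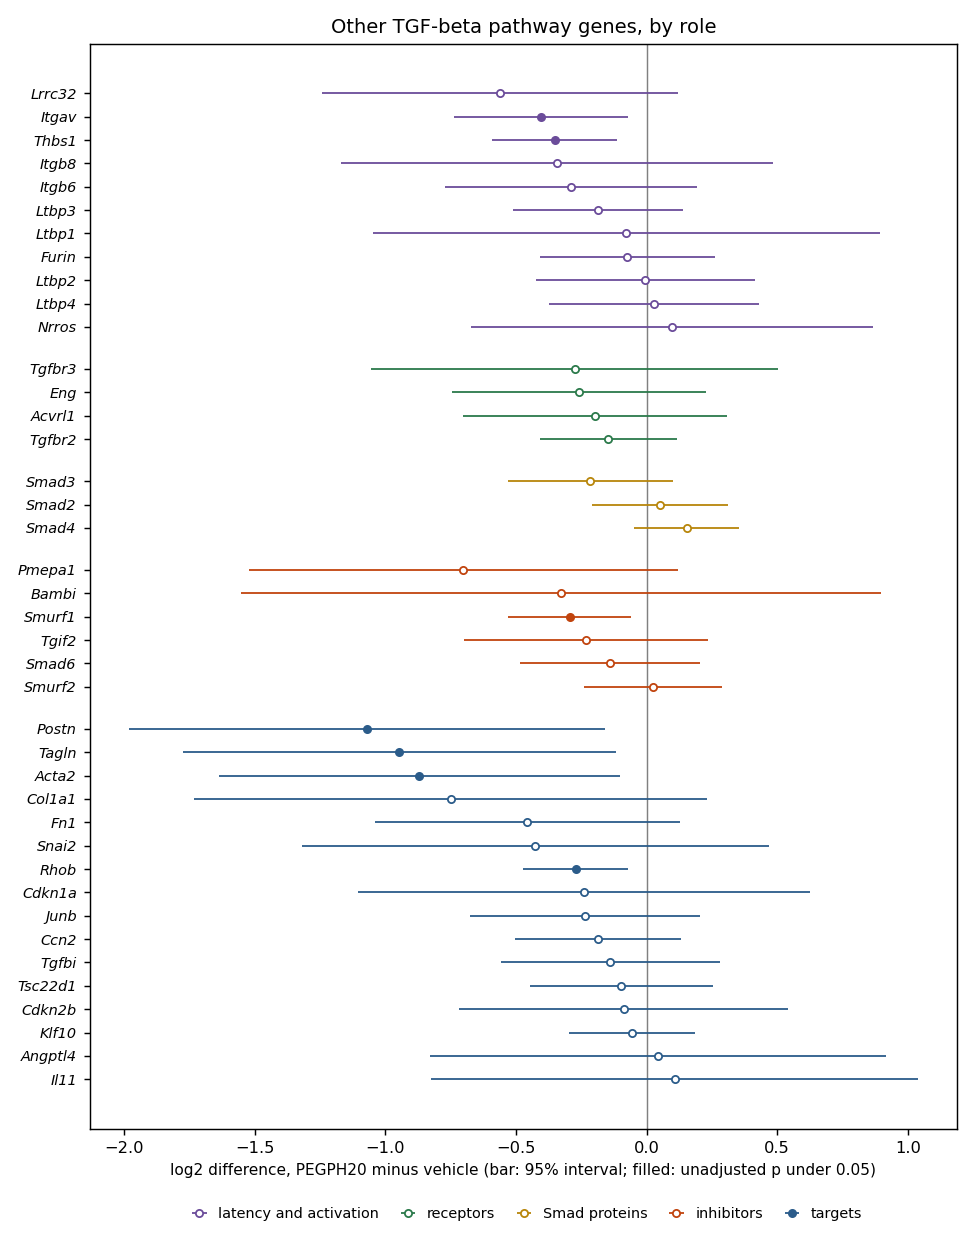
Log2 difference, PEGPH20 minus vehicle (horizontal axis), with 95% intervals for 40 of the 41 other pathway genes, grouped and coloured by role, filled where the unadjusted p was under 0.05. Most points lie left of 0, with Postn (-1.07) the farthest and the widest interval that of Bambi (SE 0.545).

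Antisense gene models overlap exons of 3 members, and strand use in the counting is not given in the sources used here. Models across Tgfb2 (Gm29491) and Tgfb3 (Gm37804) had 0 reads in all 7 libraries, and 0610040F04Rik across Bhlhe40 had 10 in all, while Gm48008 across Tgfb3 was not analysed here. Reads of a gene and its antisense partner could not be told apart without strand, so Tgfb2, Tgfb3 and Bhlhe40, and likewise Thbs1, Itgav, Ccn2 and Tagln, are uncertain to that extent.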

How the data were processed

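Total RNA (200 ng per tumour, 7 tumours) went into a Lexogen QuantSeq 3′ FWD kit with optional molecular identifiers, and libraries were read for 75 nt from a single end, per the labels' protocols. Reads were placed on GRCm38, per the submitters' processing notes. Aligner, counting tool, strand setting and use of the identifiers are not given in the sources used here. Each deposited signal value was, from the values themselves, a read count that the authors divided by 1 size factor per library. In every column 100% of the values were whole multiples of 1 read (tolerance 0.01), so whole reads were recovered. Columns of no sample numbered 0. Libraries of a group differed beyond sampling noise (chi-square per degree of freedom 7.10 to 17.9). The labels do not say more than that tumours were separate samples, so p-values measure the spread between them.

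Symbols were matched for 47224 of 47643 identifiers, and positions come from GENCODE M21 (GRCm38). The test was limma 3.58.1 with an intensity trend on log2(value + 1), which understates the change of low genes, for genes with a mean of at least 1 and Benjamini-Hochberg adjustment over all of them (threshold 0.05), run in R 4.3.3. Its code was also run on simulated reads with 1 fixed dispersion and changes larger than those of the members. That run does not measure the power of the test in these tumours. On the recovered reads, edgeR 4.0.16 (quasi-likelihood) called 0 genes and DESeq2 1.42.0 called 64. Other alternatives were TMM, DESeq2 and upper-quartile scaling in limma, voom with sample weights, a pseudocount of 0.1, no filter, 5 CPM in 3 libraries, 1 surrogate variable (sva 3.50.0), the fibroblast level as a covariate, no muscle-rich tumours, and each tumour left out. Ligand shares were compared with exact permutation tests (scipy 1.17.1). Recovered reads give the same shares by construction, so they are no separate check.

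Named were the 9 members, pathway genes with an unadjusted p under 0.05 (in a role with none, the 1 of largest mean), Tgfbr2, Smad2, Smad3, Smad4, Smad6, Pmepa1 and Ccn2, and the 3 genes nearest each member. For 1 gene of the pathway list, counted in its totals, values are not reported here. Members and lists were chosen with earlier results of these data known.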

Additional observations from a re-analysis of the deposited data

Results flagged for a closer look

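In PEGPH20 37, Itgav had 183 normalised read counts, far from the 257 to 261 of the other 3 PEGPH20 tumours. The Tgfb1 share of the 3 ligands' values was 12.1% in PEGPH20 37, against 17.1% to 18.03% in the other 3. These 2 of 27 values tested in the PEGPH20 group stood apart by the gap of the farthest tumour to its neighbour relative to the group's range. Chance alone flags about 1 in 20 groups.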

How the results depend on the processing

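No member and no other pathway gene had an adjusted p under 0.05 under any of the 19 alternatives. Over all genes, DESeq2 called 64 and limma with 1 surrogate variable 15, leaving out 1 tumour gave 0 to 3 (3 without vehicle 16), and the rest 0. Members with smaller values in PEGPH20 tumours numbered 8, 4 with the fibroblast covariate and 7 to 8 when 1 tumour was left out. Members with an unadjusted p under 0.05 numbered 4, 2 with the fibroblast covariate (Tgif1 lower, Tgfb3 higher) and 3 to 6 with 1 tumour out. Pathway genes under 0.05 numbered 8, 4 with the covariate and 2 to 16 with 1 tumour out. The share of all genes tested under 0.05 in those settings is not given here, so these counts are not set against it. Signs turned for Tgfb1 with 1 surrogate variable (0.051), with the fibroblast covariate (0.41), without the muscle-rich tumours (0.10) and with 1 tumour out (-0.25 to 0.14), and under the covariate for Tgfb2 (0.37), Tgfbr1 (0.12) and Smad7 (0.15). The Tgfb1 share difference ranged from -0.656 to 2.03 percentage points with 1 tumour out. The cause of these moves was not tested. No paired analysis was possible because the groups share no replicate number. With 47 to 135 reads, Tgfb1 has the largest counting error of the 9.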
